A study of Mus musculus with 2 samples.

Results

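The Fgf receptors and feedback inhibitors are 10 genes of 1 signalling pathway: the receptors Fgfr1, Fgfr2, Fgfr3 and Fgfr4, the inhibitors Spry1, Spry2, Spry4 and Dusp6, and the Ets factors Etv4 and Etv5. They were taken by symbol from the GENCODE M21 annotation of mm10, and all 10 were found among 21728 protein-coding genes on the autosomes and the X chromosome. DNase-seq, which maps DNA that the enzyme DNase I cuts readily because it is not wrapped in nucleosomes, was run on healthy whole mouse embryos of 11 days from the B6NCrl strain, with males and females pooled. The study has 1 group with 2 biological replicates, so no condition was compared, and the labels name no treatment or altered allele. The labels give both replicates a biosample entry of their own and a common donor entry, and the number of embryos in a pool is not given by them. A whole embryo holds many cell types, so a peak open in few cells and a peak weakly open in many cannot be told apart.

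Fibroblast growth factors bind receptor tyrosine kinases on the cell surface, which pass the signal through docking proteins to Ras and the MAP kinase cascade. This cascade turns on genes of the Ets family, among them Etv4 and Etv5, and at the same time turns on its own inhibitors: Sprouty proteins act upstream of the cascade, and the phosphatase Dusp6 removes phosphate from its last kinases. At midgestation this circuit patterns the limb buds, the branching lung and kidney, the pharyngeal arches and parts of the brain, and transcripts of Dusp6, Spry genes, Etv4 and Etv5 are widely used to mark where Fgf signals act.

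Each replicate has its own list of peaks, which are windows of 150 bp with a score from 1 to 150, and of hotspots, which are wider regions of raised cutting. Replicate 1 held 204697 peaks and replicate 2 held 231103. Peaks of the 2 lists that have at least 1 bp in common are called shared, which applied to 79.5% of replicate 1 peaks and 70.3% of replicate 2 peaks. Scores are used only within a list, where the median was 45 in replicate 1 and 50 in replicate 2. Of 17 marker genes of embryonic tissues 15 had a promoter peak in both replicates, beside 70.3% of all protein-coding genes. Cdh5 and Gata1 had one in replicate 2 alone. None of 8 markers of placenta and decidua, yolk sac or macrophages had a promoter peak in either replicate. Some of these 8 had shared peaks away from starts, such as Ttr with 6, whereas Tpbpa had 0, so absence of such cells is not shown.

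All 10 genes had a peak within 500 bp of an annotated transcription start site (TSS) in both replicates. The same was true of 70.3% of all protein-coding genes, so an open promoter is the usual state and the count alone does not set these genes apart. The score of the best promoter peak varied among the 10. Among 15223 genes with a shared promoter peak, the best peak of Dusp6 ranked above that of 97.1% of genes and the one of Etv5 above 96.0%, followed by Etv4 (88.2%), Spry2 (80.9%, by the peak at -572 bp, whose edge lies within 500 bp of the TSS), Fgfr2 (80.0%) and Fgfr1 (71.8%). Spry4 (51.6%), Fgfr3 (50.6%) and Spry1 (48.5%) stood near the middle, and Fgfr4 (25.3%) was the lowest. In the promoter window of 500 bp to either side of the principal TSS, the observed over expected ratio of CpG dinucleotides, which is high in CpG islands, ranged from 0.695 at Fgfr4 to 0.981 at Spry1. All 10 were above the median of 0.576 over all genes.

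**Figure D1:**
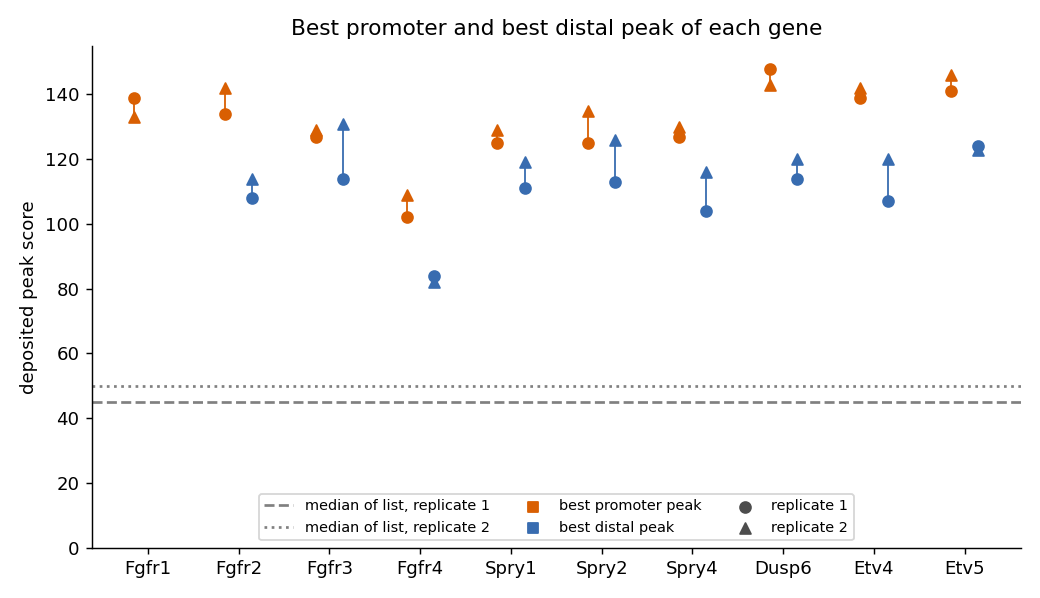
Deposited score (vertical axis, no unit) of the best shared promoter peak and the best shared distal peak of each gene, with circles for replicate 1, triangles for replicate 2 and horizontal lines at the median of each list. Fgfr2 is shown with the territory of its principal start; Dusp6 and Etv5 have the highest promoter scores, and the best distal peak of Fgfr3 scores 114 and 131, beside 127 and 129 at its promoter. For Fgfr1 only the promoter peak is drawn. For Spry2 the promoter peak drawn is the one at -272 bp, whose midpoint lies within 500 bp of the TSS, and not the one at -572 bp.

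To describe the sequence around each gene, its territory was taken as the stretch whose closest 5'-most TSS of a protein-coding gene is its own, and distal peaks as those with a midpoint over 1000 bp from every protein-coding TSS. A further start of a neighbouring gene can therefore be closer to a peak in a territory than the gene it was assigned to. The 10 territories covered 1669.5 kb and held 295 peaks in replicate 1 and 323 in replicate 2. Of these, 79.7% (95% Wilson interval 74.7 to 83.9) and 71.5% (66.4 to 76.2) were shared, beside 79.5% and 70.3% over the whole lists. The 235 shared peaks included 193 distal ones. Per 100 kb of assembled sequence the median gene had 12.3 shared distal peaks, with a range from 7.31 to 16.4, against a median of 4.12 over 21704 genes with a territory. All 10 genes lay above that median, 8 above the 75th percentile of 8.32 and 5 above the 90th percentile of 13.4. Among these 5 was Fgfr2, with distal peaks that all lay inside another gene, Ctbp2. Hotspots of both replicates covered 5.31% of the 10 territories and 2.11% of the genome. No test was made of these differences, since the genes were chosen with results of these data known.

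**Figure D2:**
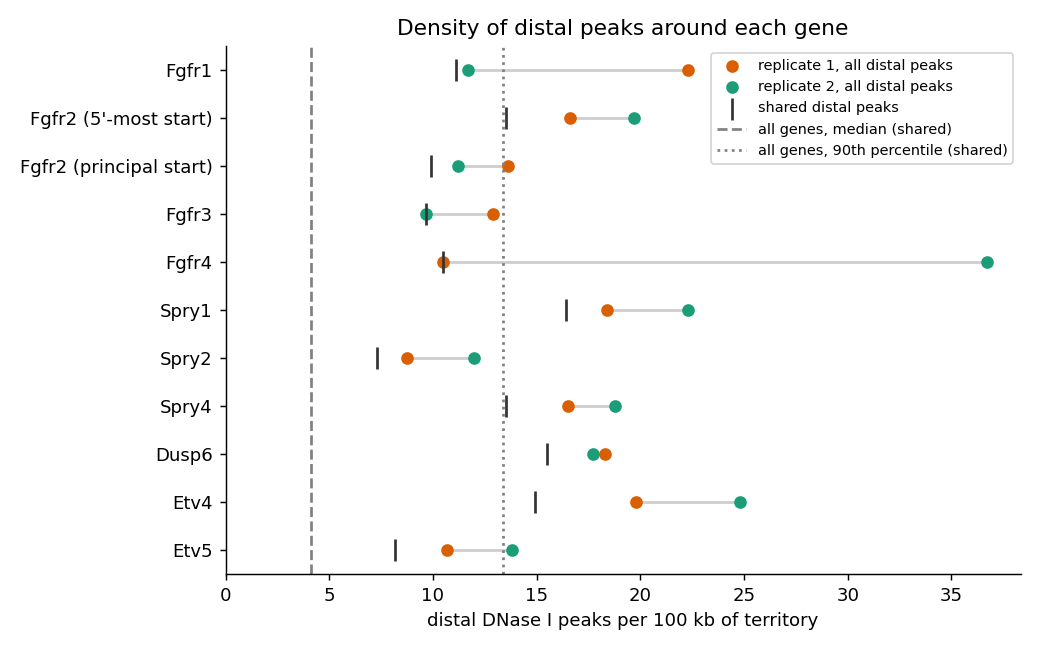
Distal peaks per 100 kb of territory (horizontal axis) for each gene in replicate 1 (orange) and replicate 2 (green), with black ticks for peaks shared by both, and dashed and dotted lines at the median and the 90th percentile of shared peaks over all genes. Every tick lies to the right of the median of 4.12; the replicates lie farthest apart at Fgfr4 (10.5 and 36.7) and Fgfr1 (22.3 and 11.7).

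By this density Spry1 came first, with 18.4 distal peaks per 100 kb in replicate 1, 22.3 in replicate 2 and 16.4 shared. Dusp6 followed with 18.3, 17.7 and 15.5 in the same order, and Etv4 with 19.8, 24.8 and 14.9. The next places went to Fgfr2 and Spry4 (13.5 shared each), Fgfr1 (11.1), Fgfr4 (10.5), Fgfr3 (9.65), Etv5 (8.18) and Spry2 (7.31). The value of Fgfr2 came from 13 peaks that all lay inside another gene, Ctbp2. With territories drawn from principal starts it was 9.92, in place 7. Counted in either replicate alone, Etv4 lay above both Spry1 and Dusp6, and from Fgfr2 down the replicate values of each neighbouring pair overlapped. The place of a single gene in this order is therefore not resolved by 2 replicates. Spry2, in the lowest place, had 31 shared distal peaks, more than any of the others but Dusp6, and these were spread over the widest territory of the rule, 424 kb.

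Fgfr1, a receptor the embryo needs from gastrulation on, lies on chr8:25513654-25575718 (plus strand), and its territory of 170.5 kb held 43 peaks in replicate 1 and 25 in replicate 2, of which 23 were shared. The best promoter peak lay on the principal TSS and scored 139 and 133 in replicates 1 and 2, inside the widest hotspot overlap of the territory, 1594 bp. Of 19 shared distal peaks of Fgfr1, 5 were in its own introns and 14 upstream of the principal TSS, the farthest at 129 kb with scores of 41 and 52. Those 4.03 and 3.49 kb upstream of the principal TSS still lay inside the gene interval, which begins at an earlier start. The territory ended at position 25555617, short of the 3' end of the gene, so peaks beyond it are not counted here. Upstream peaks came in groups: 3 lay between -89.6 and -88.4 kb and 3 between -78.3 and -77.5 kb, where negative distances are upstream of the principal TSS.

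The replicates differed in number of peaks at Fgfr1. Replicate 1 had 20 peaks there that replicate 2 lacked, whereas replicate 2 had 3 that replicate 1 lacked. The 20 scored between 23 and 49, with a median of 33.0 against 62.0 for the shared peaks of the same list, and none lay in a hotspot of replicate 2. Replicate 1 gave 63.2% of the 68 peaks of both lists, and among 1327 territories with at least as many peaks no other had so high a share (median 46.9%). Of the territories on either side, Tacc1 had 37 peaks in replicate 1 and 36 in replicate 2, and Letm2 had 7 and 9, while Plekha2, beyond Tacc1, had 16 and 31. This comparison was chosen after the counts were seen. With Fgfr1 left out, 84.1% of replicate 1 peaks of the other genes were shared. Whether the library or the embryos gave the additional peaks was not tested.

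Fgfr2 is used in the ectoderm and endoderm of limb, lung and other organs, where it receives signals such as Fgf10 from the mesenchyme. Its annotation set the values of the rule: 1 of its 27 transcripts, Fgfr2-217, starts 2.86 Mb from the starts of the other 26, so the rule put the territory of Fgfr2 at chr7:133027247-133123851, where the 5'-most TSS of Ctbp2, which encodes a transcriptional corepressor, is 1004 bp away. There 24 peaks in replicate 1 and 27 in replicate 2, 20 of them shared, lay at that neighbour, and the 13 shared distal ones were inside Ctbp2, the best with scores of 109 and 116 and the next with 84 and 92. The farthest shared peak from the principal TSS scored 113 and 118. The gene interval of 2961 kb held 315 shared peaks and the principal starts of 29 other protein-coding genes. With territories drawn from principal transcripts instead, an alternative chosen after seeing the data, that of Fgfr2 was chr7:129929028-130392885, 464 kb long. It held 68 peaks in replicate 1, 63 in replicate 2 and 50 shared ones, of which 46 were distal (9.92 per 100 kb). By principal starts the median of the 10 genes was 10.6 shared distal peaks per 100 kb against 4.11 over all genes, and 4 genes rather than 5 exceeded the 90th percentile of 13.5.

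The promoter peak of Fgfr2, at chr7:130266276-130266425, scored 134 in replicate 1 and 142 in replicate 2, the highest promoter score of the receptors in replicate 2. It is shown because it lies upstream of the principal transcript and holds 1 copy of GGAA, the core that Ets factors bind on either strand (capitals, mm10, plus strand).
Fgfr2 promoter peak: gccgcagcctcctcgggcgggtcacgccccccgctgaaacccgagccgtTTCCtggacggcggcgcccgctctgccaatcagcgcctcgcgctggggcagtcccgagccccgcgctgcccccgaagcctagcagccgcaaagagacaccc
Of the 46 distal peaks 10 were in introns of Fgfr2 and 36 between genes, with a median distance of 102 kb from the TSS. They ran 325 kb past it in the downstream direction, which is beyond the 3' end of the gene of 102 kb. The farthest scored 60 in replicate 1 and 54 in replicate 2. The best distal peak lay in intron 1, 1.06 kb from the TSS and so just past the limit of 1000 bp, and scored 108 and 114. Another peak, 7.16 kb upstream, scored 101 and 116. A group of 4 peaks lay between -103 and -101 kb and another of 4 between 301 and 304 kb. The widest overlap of hotspots of both replicates, 1205 bp, was at the former group, 100931 bp upstream of the TSS, and not at the promoter. A start of Ate1 was closer to the peaks of that group, at 49319 to 51199 bp.

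Fgfr3, a receptor that restrains growth of cartilage, lies on chr5:33721674-33737068 (plus strand) and had 13 peaks in replicate 1, 11 in replicate 2 and 10 shared ones in 62.2 kb. No other gene of the 10 had so high a median score in replicate 2: the median peak scored 80 and 93 in replicates 1 and 2, higher than 82.2% and 85.2% of the lists. Its promoter peak scored 127 and 129. Distal peaks upstream came close to it: the peak 16.3 kb upstream scored 117 and 123, the one 26.3 kb upstream 114 and 131 and the one 29.1 kb upstream 118 and 125. A start of Tacc3 was closer to the last of these, at 23867 bp. The remaining promoter-class peaks sat in intron 2 near further annotated starts, and the widest hotspot overlap, 1319 bp, was there and not on the principal TSS. Hotspots of both replicates covered 9.10% of this territory, the largest share of the 10.

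Fgfr4, a receptor used in liver and developing muscle, lies on chr13:55152640-55168759 (plus strand). Its promoter peak was the weakest of the 10, with scores of 102 and 109, and was the only shared peak in its gene body. The other 4 shared peaks lay between genes downstream, the best at 19.1 kb with scores of 84 and 82, the next at 19.4 kb with 78 and 86 and the farthest at 26.1 kb with 75 and 69. The widest hotspot overlap, 928 bp, covered the TSS. Replicate 1 had 5 peaks in the territory of 38.1 kb and replicate 2 had 15. All 5 of replicate 1 were shared, and the 10 that replicate 2 held alone scored between 25 and 33 and lay in no hotspot of replicate 1. Among 6490 territories with at least 20 peaks, 16, this one included, had as low a share from replicate 1 as its 25.0%. The density of Fgfr4 therefore rests on 4 peaks, and its replicates (10.5 and 36.7 per 100 kb) lay farther apart than those of any other of the 10 genes.

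**Figure D3:**
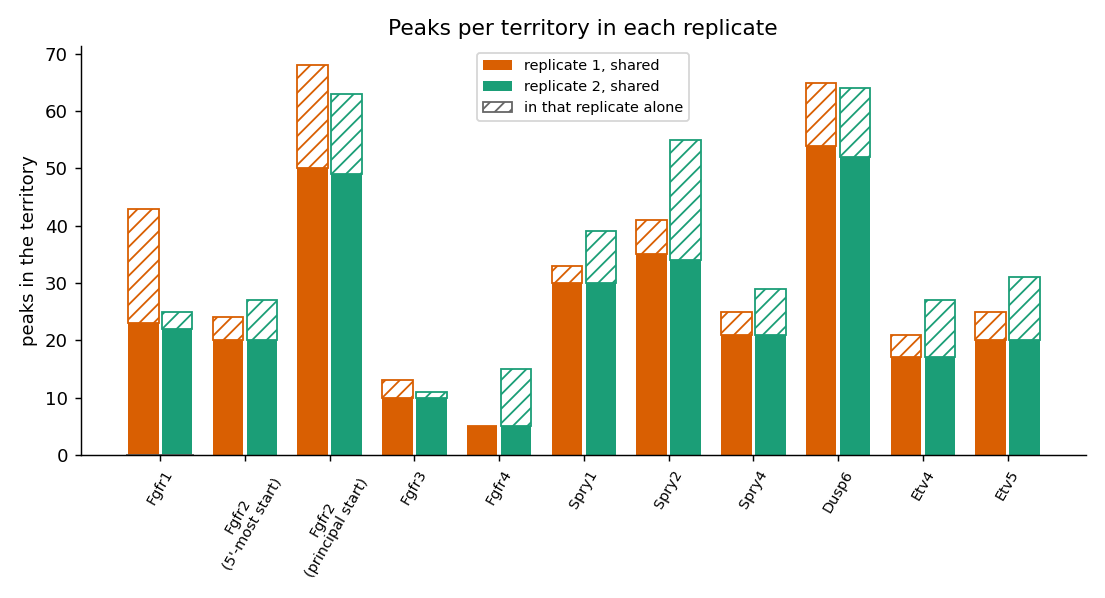
Peaks in each territory (vertical axis) for replicate 1 (orange) and replicate 2 (green), filled where shared with the other replicate and hatched where present in that replicate alone. Fgfr1 has 20 peaks of replicate 1 alone; peaks of replicate 2 alone number 21 at Spry2, 12 at Dusp6, 11 at Etv5 and 10 each at Etv4 and Fgfr4.

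Among the Sprouty genes, which encode membrane-associated inhibitors of receptor tyrosine kinase signalling, Spry1 (chr3:37639947-37644598, plus strand) is known for limiting branching of the kidney. It had 33 peaks in replicate 1 and 39 in replicate 2, with 30 shared. The promoter peak 76 bp upstream of the TSS scored 125 and 129, and a second strong peak 1004 bp downstream, in intron 2, scored 119 and 132. Both lay in a hotspot overlap of 1643 bp that held 4 shared peaks. Of 25 shared distal peaks, 16 were between genes and 1 was in an intron of Spry1. The other 8 were in introns of the upstream neighbour Spata5, and a start of Spata5 was closer to them. Among the peaks between genes, a Spata5 start was also closer to the 4 between -53.9 and -52.5 kb, at 12473 to 13873 bp. The same held for the peak 34.5 kb upstream, at 31873 bp. The best distal peak, 27.0 kb downstream, scored 111 and 119, and the next, 17.4 kb downstream, 73 and 98. Of the 25 distal peaks, 16 lay in 4 groups of 3 or more with gaps of at most 2000 bp. The largest was 5 peaks between 14.2 and 17.4 kb, of which those at 14204 and 14224 bp overlapped. Merged where they overlapped, the 30 shared peaks of the territory made 28 loci. The territory also held very weak peaks: the farthest, in Spata5 at 104 kb, scored 19 in both replicates.

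Spry2 (chr14:105891947-105896819, minus strand), the Sprouty gene studied most in the limb, inner ear and tooth, had 41 peaks in replicate 1, 55 in replicate 2 and 35 shared ones. The promoter peak at -272 bp scored 125 and 135, and a peak at -572 bp scored 138 and 139. The best distal peak lay far from the gene, at 164 kb downstream, with scores of 113 and 126, in a group of 3 between 164 and 166 kb. The next lay 1.11 kb upstream with scores of 104 and 118, and the farthest, 308 kb downstream, scored 52 and 60. A start of Ndfip2 was closer to that farthest peak, at 293945 bp. A hotspot overlap of 2235 bp with 5 shared peaks covered the TSS and the peak 1.11 kb upstream. AGGAAG, a form of the Ets site that is called PEA3-type here, was searched on both strands. It was present in 18 of the 31 shared distal peaks of Spry2, against 20.1% of all 125464 shared distal peaks. CCGGAA, a high-affinity Ets site, was present in 1 of the 31, against 3.40% of all. The 4 highest-scoring of these 18 are shown with the matches in capitals, at chr14:105732396-105732545, chr14:105851476-105851625, chr14:105676516-105676665 and chr14:105923056-105923205 (mm10, plus strand).
Spry2 peak 164 kb downstream: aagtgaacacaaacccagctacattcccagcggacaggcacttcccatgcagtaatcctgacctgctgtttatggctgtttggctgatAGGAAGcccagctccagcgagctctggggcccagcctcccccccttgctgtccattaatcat
Spry2 peak 45.3 kb downstream: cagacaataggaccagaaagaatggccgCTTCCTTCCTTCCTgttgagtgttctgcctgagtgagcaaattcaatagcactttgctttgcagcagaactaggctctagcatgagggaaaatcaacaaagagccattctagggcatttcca
Spry2 peak 220 kb downstream: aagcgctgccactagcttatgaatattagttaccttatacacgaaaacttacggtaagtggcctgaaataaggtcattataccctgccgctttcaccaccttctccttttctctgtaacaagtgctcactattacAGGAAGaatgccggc
Spry2 peak 26.3 kb upstream: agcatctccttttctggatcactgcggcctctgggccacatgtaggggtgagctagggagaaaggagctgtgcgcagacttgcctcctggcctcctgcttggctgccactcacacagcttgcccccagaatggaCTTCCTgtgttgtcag
The peak at 45.3 kb, with scores of 89 and 93, holds 3 overlapping copies, and each of the others holds 1. Scores were 79 and 85 at 220 kb and 78 and 77 at 26.3 kb upstream.

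Spry4 lies on the minus strand, and its territory of 133 kb held 25 peaks in replicate 1, 29 in replicate 2 and 21 shared ones. Its promoter peak on the TSS scored 127 and 130, inside a hotspot overlap of 2218 bp, wider than 99.5% of the 152764 such overlaps in the genome. Of 18 shared distal peaks, 2 were in its intron and 16 between genes. The best of them lay 30.4 kb upstream with scores of 104 and 116, and the next 85.8 kb downstream with 90 and 94. The farthest, at 88.4 kb, scored 67 and 66. A start of Ndfip1 was closer to the peaks at 85.8 and 88.4 kb, at 64301 and 61721 bp. AGGAAG was present in 5 of the 18.

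**Figure D4:**
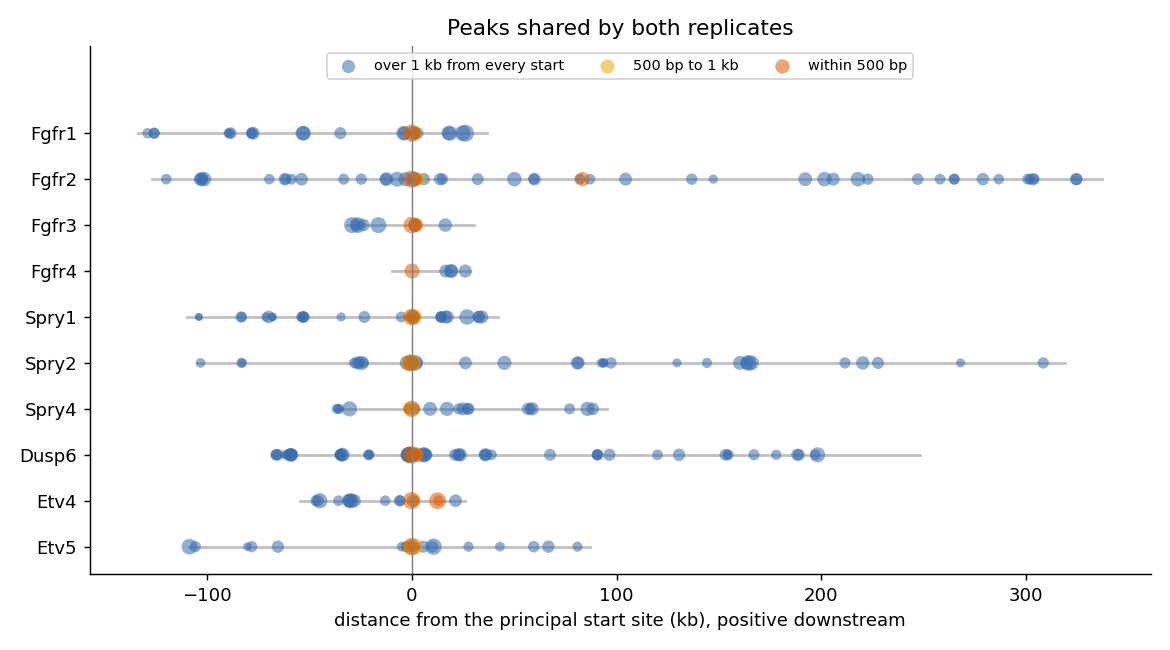
Position of each shared peak relative to the principal start site of its gene (horizontal axis, kb, positive downstream), with the size of a point growing with its replicate 1 score and colours for peaks within 500 bp of a start, from 500 bp to 1 kb, and farther away; grey bars are the territories, by the principal start for Fgfr2. Distal peaks of Fgfr2, Spry2 and Dusp6 reach 325, 308 and 198 kb from the start.

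Dusp6, the phosphatase that inactivates MAP kinases in the cytoplasm, had the highest promoter score of the 10 genes in replicate 1 and the most shared peaks by the rule. It lies on chr10:99263231-99267489 (plus strand), with 65 peaks in replicate 1, 64 in replicate 2 and 54 shared ones in 317 kb. The promoter peak 60 bp upstream of the TSS scored 148 in replicate 1 and 143 in replicate 2, near the top score of 150. It sat in a hotspot overlap of 3326 bp with 6 shared peaks, the widest of the 10 genes, and only 95 of 152764 overlaps in the genome were as wide or wider (median 242 bp). The part of this peak upstream of the transcript (chr10:99263096-99263230) and the best distal peak, 1.32 kb upstream (chr10:99261836-99261985), are shown with Ets cores in capitals because the latter holds 4 such cores in 150 bp (mm10, plus strand).
Dusp6 promoter peak: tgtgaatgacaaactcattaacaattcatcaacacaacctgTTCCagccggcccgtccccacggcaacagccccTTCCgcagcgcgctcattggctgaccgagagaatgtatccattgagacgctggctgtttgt
Dusp6 distal peak: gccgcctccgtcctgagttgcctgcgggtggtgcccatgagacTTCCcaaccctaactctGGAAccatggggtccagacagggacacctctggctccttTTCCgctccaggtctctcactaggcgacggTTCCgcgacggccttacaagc
The distal peak scored 114 and 120, and the next best, 1.20 kb upstream and overlapping it in part, 113 and 120. Both belong to a run of 4 between -1.92 and -1.20 kb that lay in the same hotspot overlap as the promoter peak. Most of the distal peaks of Dusp6 came in groups: 38 of 49 lay in 10 runs of 3 to 6 peaks with gaps of at most 2000 bp, the largest with 6 peaks between -62.0 and -58.5 kb and the next with 5 between -35.2 and -33.7 kb. Of all 10 genes' 226 distal peaks, counted with the principal start for Fgfr2, 40.7% lay in such runs, against 22.2% of all shared distal peaks. Without Dusp6 the share was 30.5%. The gap was chosen after seeing the data, and a denser territory gives more runs by itself. Of the 49, 46 lay between genes and 3 in exon 12 of Poc1b. A start of Poc1b was also closer than that of Dusp6 to the 6 peaks between -62.0 and -58.5 kb, at 8299 to 11859 bp. The farthest peak of Dusp6, 198 kb downstream and between genes, scored 104 and 123.

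Etv4 and Etv5 encode Ets activators of the PEA3 subfamily that are transcribed where Fgf signals act. Etv4 (chr11:101769742-101785371, minus strand) had 21 peaks in replicate 1, 27 in replicate 2 and 17 shared ones. Its promoter peak scored 139 and 142. A second peak of nearly that score, 132 in both replicates, lay 12.6 kb downstream in intron 8 (chr11:101772596-101772745), 490 bp from a further annotated start of Etv4. It is shown with the Ets cores in capitals, since its score came so close to that of the promoter peak (mm10, plus strand).
Etv4 intron 8 peak: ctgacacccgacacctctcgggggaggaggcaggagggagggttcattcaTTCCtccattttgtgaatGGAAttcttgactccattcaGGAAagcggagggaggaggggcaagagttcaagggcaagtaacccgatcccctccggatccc
Upstream of Etv4, 11 of its 12 shared distal peaks lay within 46.9 kb, and the widest hotspot overlap of the territory, 1776 bp, was 29145 bp upstream and not at the promoter. Groups of 4 peaks between -30.6 and -28.2 kb and of 3 between -46.9 and -44.9 kb held the best of them, with scores of 107 and 120 at -44.9 kb and 102 and 103 at the peak 29.6 kb upstream. The farthest, at -46.9 kb, scored 47 and 54. Etv4 was the only gene of the 10 with a shared distal peak that held the motif of the insulator protein CTCF.

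Etv5 (chr16:22381309-22439719, minus strand) had 25 peaks in replicate 1, 31 in replicate 2 and 20 shared ones in 196 kb. The promoter peak at -92 bp scored 141 and 146, the highest of the 10 in replicate 2, and a peak 1.15 kb downstream in intron 1 scored 128 and 130. A hotspot overlap of 1725 bp covered the TSS. The former is shown with no capitals because it holds no GGAA on either strand (chr16:22439736-22439885, mm10, plus strand).
Etv5 promoter peak: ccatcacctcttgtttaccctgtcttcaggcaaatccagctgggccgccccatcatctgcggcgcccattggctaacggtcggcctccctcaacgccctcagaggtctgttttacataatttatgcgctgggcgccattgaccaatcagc
Of its 16 shared distal peaks, 5 were in its own introns, 5 in introns of Dgkg, a diacylglycerol kinase gene upstream, and 6 between genes. The best lay in intron 5 at 10.6 kb with scores of 124 and 123. The next was also the farthest, in a Dgkg intron 109 kb upstream, with scores of 113 and 129.

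Placed by principal transcripts, 81.4% of the 226 shared distal peaks of all 10 genes lay between genes, 24 in introns of the gene itself and 17 in another gene. Of all shared distal peaks in the genome 42.2% lay inside a protein-coding gene, against 18.6% here. Gene length was not taken into account: it was 4.26 kb at Dusp6, 4.65 kb at Spry1 and 4.87 kb at Spry2, and 58.4 kb at Etv5. The median distance of the 226 peaks to the TSS was 53.0 kb, and 55 of them were over 100 kb away. Their scores had a median of 59.0 in replicate 1, against 46.0 for all shared distal peaks, and their median GC content was 53.3% against 51.3%. Hotspots at the ceiling value of 100 made up 33.3% of the replicate 1 list and 34.1% of the replicate 2 list; in the territories the share in replicate 1 was 100% at Fgfr4, with 4 hotspots, and lower at the other genes, and in replicate 2 it ran from 25.0% at Etv5 to 83.3% at Fgfr3.

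Since Etv4 and Etv5 bind Ets sites, the shared distal peaks were searched for 14 short motifs on both strands. AGGAAG was present in 59 of the 193 peaks of the rule, or 30.6% (95% Wilson interval 24.5 to 37.4), against 20.1% of all shared distal peaks, and in 27.9% (22.4 to 34.1) of the 226 with Fgfr2 by its principal start. Spry2 carried much of the difference: without it the share was 25.3%, with the 13 rule peaks of Fgfr2 still counted. Fgfr2 had AGGAAG in 6 of these 13 peaks, which lie in Ctbp2, and in 10 of 46 by its principal start. Among the other 8 genes Dusp6 had the highest count, 12 of 49, and Spry1 the highest share, 7 of 25, whereas 0 of 6 peaks of Fgfr3 and 0 of 4 of Fgfr4 held it. CCGGAA, a high-affinity Ets site, was present in 5.75% of the 226 (3.39 to 9.59) against 3.40% of all, and the plain GGAA core, which both of these and the Tead site GGAATG contain, in 88.1% against 83.5%. GGGCGG, the site of Sp1, was present in 11.9% (8.34 to 16.8) against 8.28%. An AP-1 site (TGACTCA) was in 2.21% of the peaks, against 3.53% of all shared distal peaks. Gata sites were counted by AGATAA, found in 3.98% against 5.31%. An E-box, searched as CAGCTG, was in 19.5% against 18.5%. The Tcf/Lef motif CTTTGAT, bound by effectors of Wnt signalling, was in 2.21% against 2.73%. For Sox factors AACAAT was found in 8.85% (5.80 to 13.3) against 6.37%. Pou sites, by the octamer ATGCAAAT, were in 1.33% against 1.02%. Homeodomain sites, by TAATTA, were in 2.65% against 3.35%. At the promoters, 1 of the 30 shared peaks of the rule held CCGGAA (3.33%, Wilson interval 0.591 to 16.7), against 13.4% of all shared promoter peaks. By the rule a difference was not resolved, but that 1 peak lay at a start of Ctbp2 in the territory given to Fgfr2. With Fgfr2 by its principal start the count was 0 of 27, and the upper bound of 12.5% lay below the 13.4%. AGGAAG was in 3 of these 27 (11.1%, 3.85 to 28.1) against 16.9% of all shared promoter peaks. Neither difference was tested. A match is a string of letters in a window and says nothing of binding, and intervals cover counting error only.

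**Figure D5:**
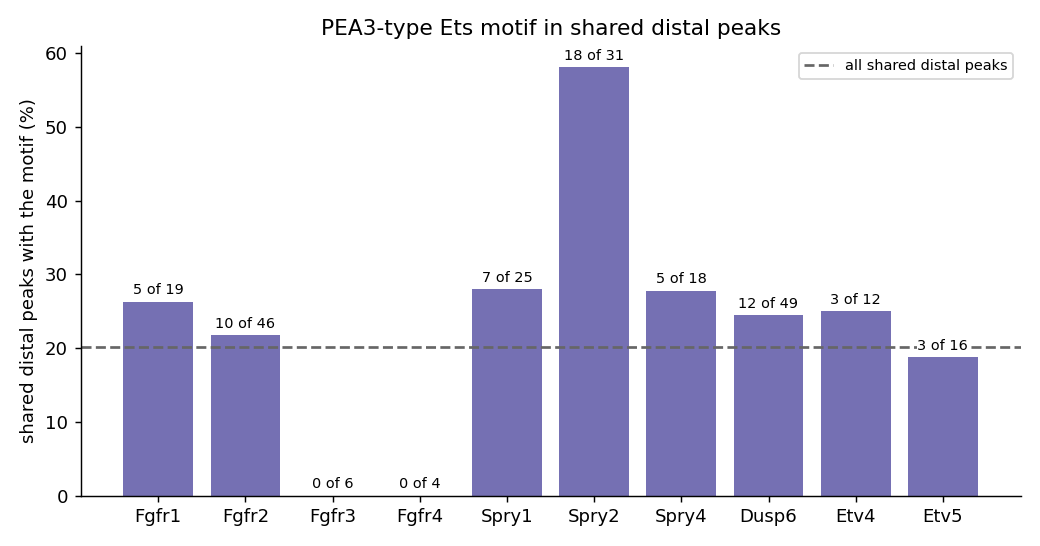
Share of shared distal peaks with the PEA3-type Ets motif (vertical axis, %) for each gene, with the number of peaks above each bar and a dashed line at the 20.1% of all shared distal peaks. Spry2 reaches 18 of 31 peaks, and Fgfr3 and Fgfr4 have none among 6 and 4.

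Of 51 other genes of the Fgf pathway that were listed, 50 were matched. Among them 49 had a promoter peak in both replicates, beside 70.3% of all protein-coding genes. The 49 were 12 of 13 ligands, all 6 co-receptors and decoy receptor genes, all 16 adaptors and kinases, all 9 further inhibitors and all 6 further Ets and early-response targets. The exception was the ligand Fgf17, with a promoter peak in replicate 1 alone. Their median was 7.49 shared distal peaks per 100 kb, lower than the 12.3 of the 10 genes and higher than the 4.12 of all genes. The groups differed: 5.83 for adaptors and kinases, 7.51 for ligands, 7.58 for co-receptors, 9.69 for further inhibitors and 14.1 for the Ets and early-response targets. The 5 highest were Spred3 (38.1, from 2 peaks in 5.25 kb), the receptor antagonist Il17rd (24.9), the early-response genes Ier2 (23.5) and Egr1 (21.9), and the MAP kinase phosphatase Dusp7 (20.2).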

How the data were processed

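Peak and hotspot lists of 2 replicates of 1 group were used as deposited. Per the labels and the text accompanying the files, the authors made each list from filtered mm10 alignments of its own replicate, without pooling; aligner, caller and versions are not named by either. The peak score deposited by the authors is a whole number from 1 to 150 of unknown construction and zero. The hotspot value deposited by the authors is a −log10 of a q value from 1.30 up to a ceiling of 100. The depth is unknown, since the lists hold no read numbers.

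Genes came from GENCODE M21, sequences from RefSeq GRCm38.p6, which has the build of the files; printed sequences leave out annotated transcript ends, and Spry4 is shown by values only. Python 3.11.15, numpy 2.4.6, scipy 1.17.1 and pysam 0.24.0 were used. Functions were tested on simulated peaks. The members, lists and rules were chosen with earlier results of these data known. All 10 members were named, each with its best shared promoter peak and 2 best shared distal peaks by mean rank of score (the distal ones of Fgfr1 are not reported here), its widest hotspot overlap and its farthest peak, plus listed pathway genes without a promoter peak in both replicates and the 5 densest; other peaks that are named were chosen after their values were seen. No statistical test was made. Alternatives covered the promoter window, the overlap, the better-scoring 50% of peaks, the region and each replicate alone.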

Additional observations from a re-analysis of the deposited data

How the results depend on the processing

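No paired analysis was possible because the study has 1 group. With the 5'-most start alone the count of 10 promoters was 9, without Fgfr1, and it was 10 under every other alternative. That of 49 pathway genes ran from 46 in the better-scoring 50% to 50 without replicate 2. Both counts were near the size of their lists, and the shares over all genes were not computed for these alternatives. The median density of 12.3 was 10.4 beyond 2500 bp from starts, 10.9 with 75 bp of overlap, 9.52 in the better-scoring 50% (all genes 1.09), 10.1 over gene bodies with 50 kb to either side (all genes 5.21), 10.6 by principal starts and 16.5 to 18.2 with 1 replicate left out. Shared peaks numbered 501 with 50 kb to either side, where the interval of Fgfr2 enters. Gene bodies held 362 shared peaks, 240 in the better-scoring 50% and 56 in principal transcripts. The shared share of replicate 1 was 74.6% with 75 bp of overlap, 92.0% in the better-scoring 50% and 84.1% without Fgfr1, and that of replicate 2 was 78.7% in the better-scoring 50%. Hotspot cover was 3.47% at the ceiling value, and 6.02% to 6.80% with 1 replicate left out. AGGAAG was in 9.84% of central 50 bp windows (all 6.77%), and in 25.4% to 28.2% of peaks with 1 replicate left out. Choices by principal starts and without single genes were made after seeing the data. Unknown depth limits statements on missing peaks.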

Other observations

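Among the 226 shared distal peaks, 2.65% consisted mostly of annotated repeats, against 4.30% of all shared distal peaks. Of the 226, 105 lay upstream and 121 downstream of the start sites. The CTCF motif was present in 1 of the 226 (0.442%, 95% Wilson interval 0.0782 to 2.46), against 2.70% of all shared distal peaks. GGAATG, the site of Tead factors, was present in 4 of 27 promoter peaks (14.8%, 5.92 to 32.5) against 5.96% of all, and in 12.8% of distal peaks against 11.0%. TGACGTCA, the cyclic AMP response element, was found in 2 distal peaks, both at Etv5.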
